A study of Saccharomyces cerevisiae with 6 samples.

Results

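The genes described here are MCM2, MCM3, MCM4, MCM5, MCM6, MCM7, CDC6, CLN3, SIC1 and EGT2 of the budding yeast Saccharomyces cerevisiae, 10 of 5981 genes placed on the R64 build. They were chosen by name, as genes of the pre-replication complex and of the interval between mitosis and G1 (M/G1), with no threshold on a measured value. The study measured where a FLAG-tagged protein sits on chromatin, by chromatin immunoprecipitation with the anti-FLAG M2 antibody and sequencing, in 3 rpd3Δ and 3 WT samples. The rpd3Δ samples were of strain YHy17, which lacks the histone deacetylase gene RPD3, and the WT samples were of strain OAy1102. All 6 were grown in rich medium (YEPD) at 23 °C, held in G1 for about 4 h with about 5 nM α-factor, and fixed with 1% formaldehyde. Which protein carried the tag is not stated in the labels. The series title speaks of Rpd3, of origins outside the ribosomal DNA array (rDNA) and of the forkhead protein Fkh1, and the values below are called anti-FLAG signal.

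In yeast, the 6 Mcm2-7 subunits form the replicative helicase, which the origin recognition complex, Cdc6 and Cdt1 load onto origins in G1. MCM genes, CDC6 and CLN3 are transcribed as cells leave mitosis through early cell cycle boxes, sites bound by Mcm1 and repressed by Yox1 and Yhp1, while SIC1 and EGT2 are targets of the activator Swi5. The forkhead proteins Fkh1 and Fkh2 act one step earlier, at the genes of the G2/M cluster that includes SWI5, and Fkh1 also binds near early replication origins.

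Summed bin counts ran from 4888453 to 6785491 in rpd3Δ samples and from 3987250 to 5907739 in WT samples. The rDNA took 56.0% to 63.99% of them in rpd3Δ and 37.1% to 49.7% in WT, so samples were scaled on 10 kb bins outside it, where the median 50 bp bin held 7 to 9 counts in rpd3Δ and 7 to 12 in WT. The labels were checked on RPD3, whose body stood at 0.0741 to 0.115 times the mean signal in rpd3Δ samples and at 0.745 to 0.923 times in WT samples. BAR1, the protease that destroys α-factor, had 0 counts in all 6, so its sequence was not seen in either strain. No label ties the samples to separate cultures, and p-values therefore describe the variation among these 6 libraries, whether technical or biological. No library of input DNA or of an untagged strain was analysed here.

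None of the 10 promoters, taken as the 500 bp upstream of the start codon, stood out as strongly bound, and none passed the test between rpd3Δ and WT. Relative to the median bin of the surrounding 20 kb, which needs no scaling between samples, the mean over the 6 samples ran from 0.965 at MCM2 to 1.78 at MCM5. Its median over the 10 genes was 1.34, against 1.14 over all promoters, and 0 of the 10 reached 2 times local background, against 11.4% of all. By edgeR's quasi-likelihood test with Benjamini-Hochberg adjustment over 5969 promoters, 0 of the 10 were called at an adjusted p under 0.05, beside 1.59% of all (95, of which 20 were higher and 75 lower in rpd3Δ). With scaling on the promoters themselves that split was 66 higher and 52 lower, and with scaling on total counts, rDNA included, 1 higher and 3084 lower, with a median log2 fold change of -0.57. All fold changes below are relative to the bins outside the rDNA. Unadjusted, 5 of the 10 had p under 0.05 (MCM4, MCM5, MCM6, SIC1 and EGT2), beside 13.8% of all promoters, and DESeq2 called 0 of the 10, giving 9 of them no adjusted p, with 4 unadjusted. Fold changes were positive in 4 genes and negative in 6, with a median log2 of -0.08, against -0.06 over all promoters.

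**Figure D1:**
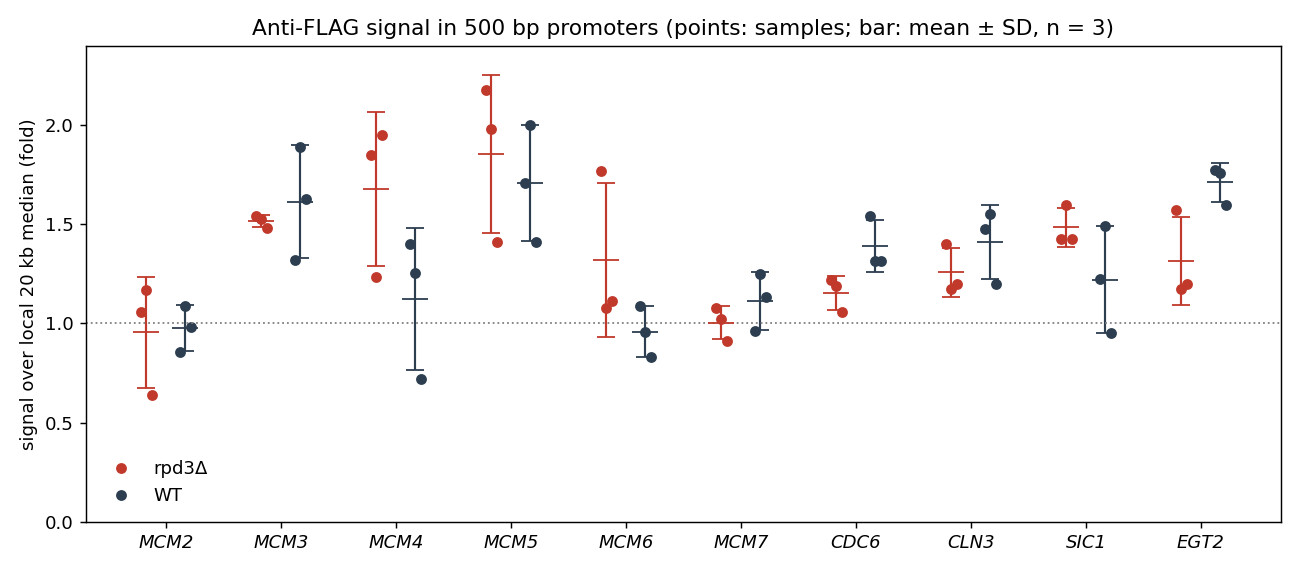
Anti-FLAG signal of the 500 bp promoter of each gene over the median of its surrounding 20 kb (vertical axis, fold; dotted line at 1), with 1 point per sample and the mean ± SD of the 3 rpd3Δ samples (red, left) and the 3 WT samples (dark, right). MCM5 has the highest mean and MCM2 the lowest; of the 10 genes, the rpd3Δ and WT points are apart only at CDC6 and EGT2, where rpd3Δ is below, as in 8.6% of all promoters.

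The 10 promoters formed a gradual order in level, in which only genes some way apart were separated. From the highest mean over local background to the lowest, the promoters were those of MCM5, MCM3, EGT2, MCM4, SIC1, CLN3, CDC6, MCM6, MCM7 and MCM2, and in each pair of neighbours in this order the ranges of the 6 samples overlapped. At the ends they did not: the lowest sample was 1.41 at MCM5 and 1.32 at MCM3, and the highest was 1.25 at MCM7 and 1.17 at MCM2. In 9 of the 10 genes the promoter stood above the gene body, as in 63.8% of all genes; the exception was CLN3, with 1.33 in the promoter and 1.397 in the body. One binding region, of 867 called on the sum of all samples, reached a member promoter, that of MCM3, by 164 bp, so 1 of 10 promoters overlapped a region, against 14.8% of all. Averaged over the 10 genes, signal in the 500 bp upstream was 1.37 times local background in rpd3Δ and 1.34 in WT, against 1.34 in rpd3Δ and 1.43 in WT over all genes. In the first 500 bp of the body it was 1.04 in rpd3Δ and 1.07 in WT.

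**Figure D2:**
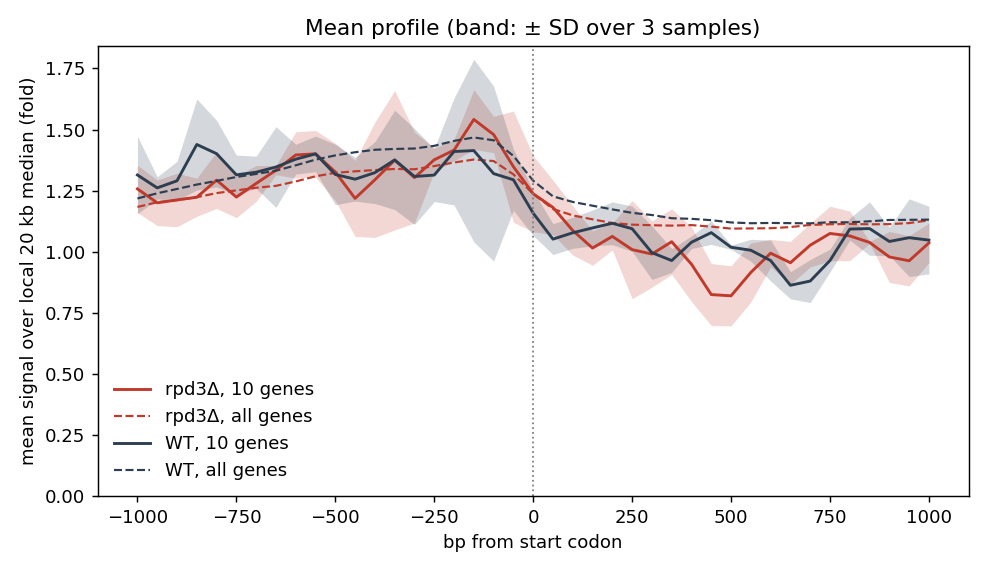
Mean signal over the local 20 kb median (vertical axis, fold) by distance from the start codon (horizontal axis, bp, negative upstream) for the 10 genes (solid) and all genes (dashed), rpd3Δ in red and WT in dark; bands are ± SD over the 3 samples of each group for the 10 genes. The 10 genes reach 1.54 in rpd3Δ at -150 bp and 1.44 in WT at -850 bp, while WT at -150 bp is 1.41 ± 0.373. Over all genes both groups are highest at -150 bp. The bands of the 10 genes overlap along the whole upstream interval.

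MCM5 (YLR274W; chromosome XII, 691555 to 693882), a helicase subunit at the Mcm2-Mcm5 gate of the ring, had the highest promoter signal of the 10. Scaled counts per 50 bp bin, that is counts set to a common library size, were 26.7, 22.6 and 17.2 in rpd3Δ and 16.7, 18.2 and 14.4 in WT. The lowest rpd3Δ sample lay below the highest WT sample, so the groups overlapped. The log2 fold change was 0.43 (SE 0.186, 95% interval 0.06 to 0.80, adjusted p by edgeR = 0.251). Of the 4 upstream windows of 250 bp, the one next to the gene was the highest in both groups. It stood at 2.29 ± 0.543 times local background in rpd3Δ and 1.94 ± 0.384 in WT (SD, n = 3 each). The 20 kb around MCM5 was itself higher in every rpd3Δ sample, with a mean of 13.6 ± 0.662 scaled counts per bin in rpd3Δ and 11.5 ± 0.309 in WT (exact permutation p = 0.1, two-sided, the smallest that 3 against 3 allow). Over local background the promoter was 1.86 ± 0.398 in rpd3Δ and 1.71 ± 0.294 in WT (exact permutation p = 0.8). The interval is shared with the divergent gene PIG1, 525 bp away, and signal of both promoters cannot be told apart.

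MCM6 and MCM4 were the other subunits with positive promoter fold changes. At MCM6 (YGL201C; chromosome VII, 117854 to 120907) the 500 bp promoter had 15.0, 10.1 and 12.05 scaled counts per bin in rpd3Δ and 10.7, 8.06 and 7.37 in WT, which overlapped, with a log2 fold change of 0.51 (SE 0.185, interval 0.14 to 0.87, adjusted p by edgeR = 0.147). The level was near local background, 1.32 ± 0.388 in rpd3Δ and 0.959 ± 0.131 in WT (exact permutation p = 0.2). MCM4 (YPR019W; chromosome XVI, 596750 to 599551) had 10.5, 7.67 and 10.6 in rpd3Δ and 8.22, 7.92 and 4.58 in WT. WT sample 3 alone was low, on 36 counts, and the groups overlapped, with a log2 fold change of 0.44 (SE 0.208, interval 0.03 to 0.85, adjusted p by edgeR = 0.318). The mean over the 20 kb around MCM4 went the other way, at 5.89 ± 0.203 in rpd3Δ and 7.10 ± 0.135 in WT, without overlap. That span takes in a binding region 7.75 kb upstream, with 8.92 ± 1.30 scaled counts per bin in rpd3Δ and 27.8 ± 5.30 in WT. How much of the difference came from that region was not tested. Neither gene's body passed the test, with log2 fold changes of 0.22 at MCM6 and -0.19 at MCM4.

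MCM3 (YEL032W; chromosome V, 86937 to 89852) was the only one of the 10 with a binding region at its promoter. The region, V:85501-86600, peaked at 3.53 times local background and covered the neighbouring genes HYP2, which encodes the translation factor eIF5A, UTR5 and MTC7, ending 337 bp upstream of the MCM3 start codon. Its mean was 21.8, 21.2 and 22.8 scaled counts per bin in rpd3Δ and 23.2, 29.3 and 26.4 in WT. All rpd3Δ samples were below all WT samples, and the share of regions apart in this way was not counted. The region was not called (log2 fold change -0.26, SE 0.160, adjusted p by edgeR = 0.358). Of the 867 regions 5.07% were called by edgeR, and 3.92% were called lower in rpd3Δ. The 20 kb around MCM3, which takes in the region, was also lower in every rpd3Δ sample, at 12.6 ± 1.17 in rpd3Δ and 15.7 ± 1.51 in WT. Signal declined from the region toward the gene: 750 to 1000 bp upstream it was 3.09 ± 0.630 times local background in rpd3Δ and 3.48 ± 0.641 in WT, and in the first 250 bp 1.48 ± 0.259 in rpd3Δ and 1.32 ± 0.262 in WT. The promoter had 13.1, 12.6 and 12.05 scaled counts per bin in rpd3Δ and 11.6, 15.9 and 14.5 in WT, which overlapped (log2 fold change -0.16, SE 0.177, adjusted p by edgeR = 0.782). A tRNA gene, YNCE0005W, lies 251 bp upstream of the start codon.

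MCM7 and MCM2 had the lowest promoter signal over local background. MCM7 (YBR202W; chromosome II, 625772 to 628309), divergent from MIN7 across 1075 bp, had 10.2, 10.6 and 9.88 scaled counts per bin in rpd3Δ and 9.39, 12.3 and 13.0 in WT, which overlapped (log2 fold change -0.17, SE 0.181, adjusted p by edgeR = 0.753). It stood at 1.00 ± 0.0849 times local background in rpd3Δ and 1.11 ± 0.146 in WT. MCM2 (YBL023C; chromosome II, 174920 to 177526) had 6.98, 7.25 and 4.33 in rpd3Δ and 5.87, 6.87 and 6.23 in WT, with both group means just under local background. The interval of its log2 fold change, -0.49 to 0.45 around -0.018, is the widest of the 10. The MCM2 promoter held the fewest counts over the 6 samples, 32 to 74 in rpd3Δ and 49 to 98 in WT.

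**Figure D3:**
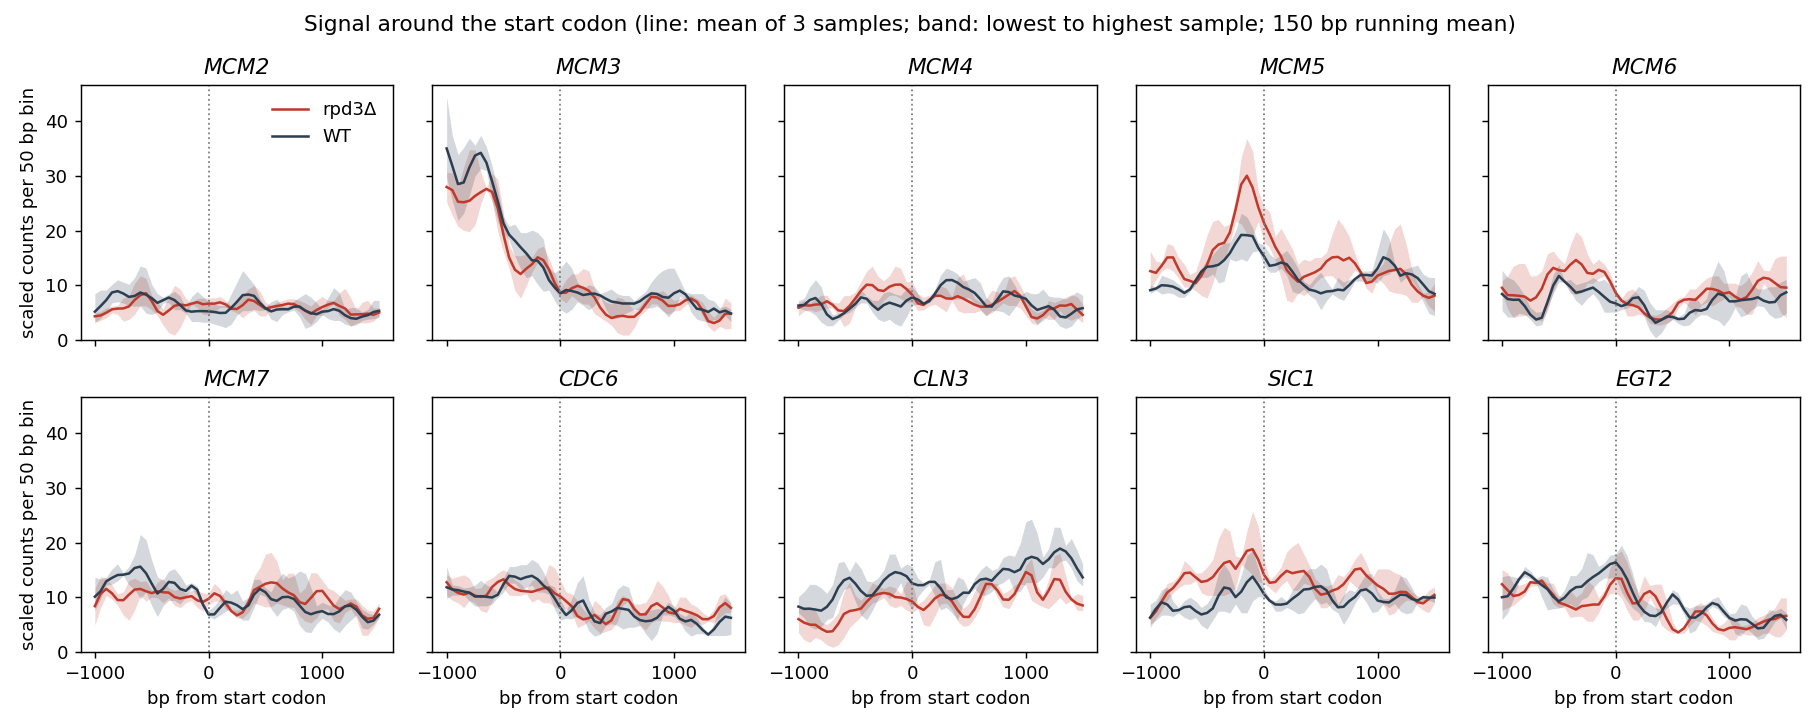
Scaled counts per 50 bp bin (vertical axis, same scale in all panels) by distance from the start codon (horizontal axis, bp, negative upstream) for each gene, as a 150 bp running mean; lines are means of 3 samples and bands run from the lowest to the highest sample, rpd3Δ in red and WT in dark. MCM5 shows a summit just upstream of its start codon, MCM3 a slope down from the region upstream of it, and the other 8 genes no upstream summit as high as that of MCM5 in rpd3Δ.

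CDC6 (YJL194W; chromosome X, 69338 to 70879), which encodes the ATPase that joins the origin recognition complex to load the helicase, had similar promoter counts in both genotypes, and a lower ratio to its surroundings in the rpd3Δ samples. Promoter scaled counts per bin were 12.6, 11.1 and 10.02 in rpd3Δ and 13.6, 11.99 and 11.7 in WT, which overlapped (log2 fold change -0.14, SE 0.177, adjusted p by edgeR = 0.816). Over local background the promoter was 1.15 ± 0.0858 in rpd3Δ and 1.39 ± 0.133 in WT, and every rpd3Δ sample was below every WT sample (exact permutation p = 0.1), as in 8.6% of all promoters. With the local median as an offset in the edgeR fit the log2 fold change was -0.26 (adjusted p = 0.801). These local medians are whole numbers of 7 to 13 counts, so each ratio moves in coarse steps. The body had the lowest level of any of the 10, 0.706 ± 0.0885 times local background in rpd3Δ and 0.691 ± 0.018 in WT, with 4.74% of all gene bodies below its mean. The nearest region lay 4.21 kb away on the gene's own side, over the ribosomal protein genes RPS14B, RPS22A and RPL39, with a peak of 9.49 times local background. The interval upstream is shared with the divergent gene ELO1 across 555 bp.

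CLN3 (YAL040C; chromosome I, 65778 to 67520), the G1 cyclin that starts the commitment to division, was the only one of the 10 whose body passed the test, and it was lower in rpd3Δ. Its body had 9.07, 9.72 and 11.3 scaled counts per bin in rpd3Δ and 12.7, 14.7 and 13.8 in WT. Every rpd3Δ sample was below every WT sample, and the log2 fold change was -0.46 (SE 0.110, interval -0.68 to -0.24, adjusted p by edgeR = 0.00423). Of all 5966 gene bodies 7.24% were called, 4.12% higher and 3.12% lower in rpd3Δ, so 1 of 10 is near the background. At an unadjusted p under 0.05, 2 of the 10 bodies stood beside 20.8% of all. Without rpd3Δ sample 2 the edgeR adjusted p was 0.0608. The body stood at 1.26 ± 0.122 times local background in rpd3Δ and 1.54 ± 0.0856 in WT, again without overlap (exact permutation p = 0.1). On this measure rpd3Δ lay below WT without overlap in 7.95% of all bodies and above in 9.48%, so 1 of 10 is near the background.

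Upstream of CLN3 the signal was also lower in rpd3Δ, with the largest fold change between 500 and 750 bp from the start codon. The 500 bp promoter had 10.6, 9.74 and 9.75 scaled counts per bin in rpd3Δ and 13.0, 14.2 and 10.7 in WT, without overlap, but did not pass (log2 fold change -0.34, SE 0.179, adjusted p by edgeR = 0.387). In the 250 bp window from 500 to 750 bp upstream the values were 9.24, 6.01 and 2.98 in rpd3Δ and 12.7, 14.6 and 9.91 in WT. This was the only one of the 40 such windows of the 10 genes to be called, beside 0.55% of all in either direction and 0.365% lower (log2 fold change -0.996, SE 0.263, adjusted p by edgeR = 0.0351). It rested on few counts, with rpd3Δ sample 3 lowest. Leaving out rpd3Δ sample 2 or 3 or WT sample 1 or 2 ended the call, with adjusted p-values of 0.200, 0.283, 0.173 and 0.382 by edgeR, as did summing WT samples 1 and 2 (0.200) and the local median as an offset (-0.77, 0.465). The whole 1000 bp upstream, which lies between CLN3 and the tandem gene CYC3, had 8.96, 8.03 and 6.09 in rpd3Δ and 12.6, 12.02 and 9.41 in WT, without overlap, and was lower in rpd3Δ (log2 fold change -0.56, SE 0.142, adjusted p by edgeR = 0.0073). That call was lost without rpd3Δ sample 3, WT sample 1 or WT sample 2, with edgeR adjusted p-values of 0.0749, 0.0874 and 0.105, and with WT samples 1 and 2 summed as 1 sample (0.0501).

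The neighbourhood of CLN3 shifted in the same direction. The 20 kb around it averaged 10.8 ± 0.570 scaled counts per bin in rpd3Δ and 13.0 ± 0.687 in WT, without overlap, a log2 ratio of -0.26 (exact permutation p = 0.1). With each sample's local median as an offset in the edgeR fit, the CLN3 body had a log2 fold change of -0.30 and an adjusted p of 0.189, and the 1000 bp upstream -0.33 and 0.433. The nearest region, 2.78 kb upstream over CDC19, the pyruvate kinase gene, did not pass (log2 fold change -0.27, edgeR adjusted p = 0.368).

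SIC1 (YLR079W; chromosome XII, 286820 to 287674), the inhibitor of the Clb-Cdc28 kinases that holds cells in G1, was higher in rpd3Δ over its upstream kilobase. In the 500 bp promoter it had 14.8, 18.2 and 15.4 scaled counts per bin in rpd3Δ and 10.8, 12.5 and 9.66 in WT. Of the 10 promoters it alone had its lowest rpd3Δ sample above its highest WT sample, which held for 5.7% of all, and its log2 fold change of 0.54 (SE 0.178, interval 0.19 to 0.89) had an edgeR adjusted p of 0.0913. With scaling on the promoters themselves it passed (edgeR adjusted p = 0.0241), and without rpd3Δ sample 1 as well (0.0438). With any other sample left out it did not pass, with edgeR adjusted p-values from 0.0978 to 0.352. The 1000 bp upstream had 13.5, 14.3 and 13.5 in rpd3Δ and 9.44, 10.02 and 8.77 in WT, without overlap, a log2 fold change of 0.54 (SE 0.131, adjusted p by edgeR = 0.00432). That call held when any 1 sample was left out, with edgeR adjusted p-values from 0.00559 to 0.0358, but with scaling on total counts the log2 fold change was 0.029 (edgeR adjusted p = 0.885). SIC1 diverges from BOS1, a SNARE gene, across 260 bp, so most of the longer window lies over BOS1.

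As at CLN3, the surroundings of SIC1 moved with it, and among the 10 genes shifts of this kind were not limited to CLN3 and SIC1. The 20 kb around SIC1 averaged 12.3 ± 0.0740 scaled counts per bin in rpd3Δ and 9.78 ± 0.394 in WT, a log2 ratio of 0.33 and the largest of the 10 in size (exact permutation p = 0.1). The 20 kb level was also apart between the groups at MCM3, MCM4, MCM5 and MCM7. At MCM7 it was higher in rpd3Δ, 12.3 ± 0.245 against 11.6 ± 0.261 in WT, while the promoter fold change was negative. The share of all genes with such a shift was not counted. Over local background the 1000 bp window was 1.27 ± 0.0324 in rpd3Δ and 1.08 ± 0.103 in WT, without overlap (exact permutation p = 0.1), and rpd3Δ was above WT in this way at SIC1 and MCM6 among the 10 and in 4.44% of all such windows. The 500 bp promoter was 1.48 ± 0.1003 times local background in rpd3Δ and 1.22 ± 0.271 in WT, which overlapped (exact permutation p = 0.3). With the local median as an offset the edgeR log2 fold change was 0.27 for the promoter (adjusted p = 0.801) and 0.22 for the 1000 bp upstream (adjusted p = 0.63). The body had 12.9, 14.8 and 11.6 scaled counts per bin in rpd3Δ and 9.84, 9.11 and 10.9 in WT, without overlap (log2 fold change 0.41, SE 0.143, adjusted p by edgeR = 0.0669). It passed without rpd3Δ sample 3 (0.032) or WT sample 3 (0.0498). With any other sample left out the body did not pass, with edgeR adjusted p-values up to 0.314. SIC1 and MCM5 are the members on chromosome XII, which carries the rDNA, 162 kb and 201 kb away from it, and their local levels were the ones with the highest ratios of rpd3Δ to WT. The part of the rDNA share in these results was not tested.

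EGT2 (YNL327W; chromosome XIV, 24048 to 27173), a cell wall protein gene of early G1, had the most negative promoter fold change of the 10. Scaled counts per bin were 10.4, 8.50 and 9.75 in rpd3Δ and 13.9, 12.3 and 14.2 in WT. Every rpd3Δ sample was below every WT sample, as at CLN3 and as in 11.7% of all promoters, and the log2 fold change of -0.49 (SE 0.179, interval -0.85 to -0.14) had an edgeR adjusted p of 0.147. Unlike at SIC1, the surrounding 20 kb overlapped between the groups, 7.78 ± 0.310 in rpd3Δ and 8.31 ± 0.466 in WT. Over local background the promoter was 1.31 ± 0.223 in rpd3Δ and 1.71 ± 0.097 in WT, without overlap (exact permutation p = 0.1). On this measure rpd3Δ lay below WT without overlap in 8.6% of all promoters. With the local median as an offset the edgeR log2 fold change of the promoter was -0.38 (adjusted p = 0.61). Over local background the 1000 bp upstream was 1.52 ± 0.179 in rpd3Δ and 1.62 ± 0.135 in WT, which overlapped (exact permutation p = 0.6). Of the 4 upstream windows the group means were farthest apart in the one next to the gene: the first 250 bp had 11.3, 9.74 and 10.3 in rpd3Δ and 15.7, 15.3 and 15.3 in WT, whereas the window from 500 to 750 bp had 10.7, 10.98 and 12.7 in rpd3Δ and 11.9, 9.81 and 11.2 in WT. The start codon of EGT2 lies 4.75 kb from RPD3, the deleted gene, 24 kb from the chromosome end, and 773 bp from the divergent gene MDJ2.

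**Figure D4:**
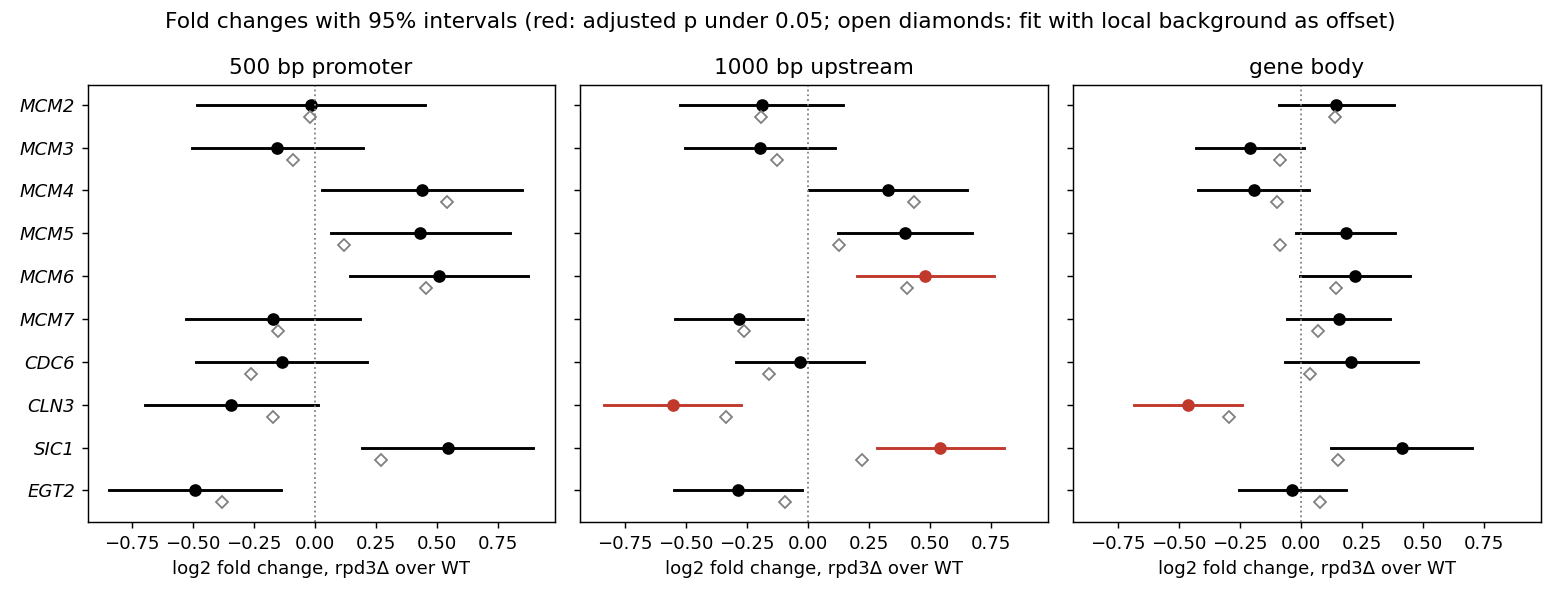
Log2 fold change of rpd3Δ over WT (horizontal axis) with its 95% interval for each gene in the 500 bp promoter, the 1000 bp upstream window and the gene body; red marks an edgeR adjusted p under 0.05 and open diamonds the fit with local background as an offset. Red appears for MCM6, CLN3 and SIC1 in the 1000 bp window and for CLN3 in the body, and those diamonds all lie nearer to 0 than the red points.

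Across the window types, the calls among the 10 genes were few and fell on 3 of them. In the 1000 bp windows SIC1 and MCM6 were higher and CLN3 lower in rpd3Δ, 3 of 10, beside 5.98% of all 5967 windows by edgeR (1.74% higher, 4.24% lower). Without overlap, rpd3Δ lay above WT in MCM5, MCM6 and SIC1, beside 8.43% of all windows, and below in MCM7, CLN3 and EGT2, beside 14.2%. MCM6 there had 10.2, 9.64 and 12.9 scaled counts per bin in rpd3Δ and 8.66, 7.08 and 7.69 in WT, without overlap, with a log2 fold change of 0.48 (SE 0.142, adjusted p by edgeR = 0.0249). The call was lost without rpd3Δ sample 3 or WT sample 2 (edgeR adjusted p = 0.186 and 0.200) with WT samples 1 and 2 summed (0.0596) and with the local offset (log2 fold change 0.41, adjusted p = 0.263), and with scaling on total counts the fold change was -0.025. In single 50 bp bins, rpd3Δ lay above WT without overlap in 14 and below in 17 of the 200 upstream bins, beside 5.03% above and 7.43% below over all genes. SIC1 held 6 of the bins above, while MCM7 held 5 and EGT2 4 of those below. The bodies had a median log2 fold change of 0.15, against 0.01 over all bodies, with MCM5 and SIC1 above WT and CLN3 below without overlap, beside 13.6% above and 10.2% below among all bodies. With the local offset 0 of the 10 were called by edgeR in promoters or bodies, and the calls of SIC1, MCM6 and CLN3 in the longer window were lost too. Calls were few throughout with the offset: over all genes it left 5 promoters and 101 bodies, against 95 and 432 without it. The share of all 1000 bp windows called with the offset is not given here.

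Other genes, listed for licensing and for M/G1, were counted in 4 lists of 43 genes, and in promoters edgeR called 0 of them, beside 1.59% of all promoters. The 12 licensing genes (subunits of the origin recognition complex, Cdt1, named TAH11 here, Cdc45, Mcm10, Sld3 and the Dbf4-Cdc7 kinase) had a median promoter log2 fold change of -0.02, 6 positive and 6 negative. Highest over local background was ORC6, at 2.62 ± 0.585 in rpd3Δ and 2.42 ± 0.570 in WT, followed by CDC7 at 1.65 ± 0.391 in rpd3Δ and 1.86 ± 0.258 in WT. The 8 genes of the list named for the early cell cycle box had a median of -0.30. Of them 7 were negative, against 60.1% negative over all promoters, while 5 of the 8 bodies were positive. Whether each of these genes carries such a box was not tested. At BUD4, which marks bud sites, the promoter had 23.9, 21.8 and 17.1 scaled counts per bin in rpd3Δ and 30.0, 34.2 and 26.3 in WT, without overlap (log2 fold change -0.53, edgeR adjusted p = 0.175). It passed without rpd3Δ sample 1 (0.0462) and over 1000 bp (-0.50, edgeR adjusted p = 0.0238). With any other sample left out it did not pass, with edgeR adjusted p-values from 0.125 to 0.558. The repressor gene YHP1 stood at 3.80 ± 0.749 times local background in rpd3Δ and 4.33 ± 0.697 in WT.

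Among the 15 genes of cell separation and early G1 the median was -0.06, and DSE1 and AMN1 had far more signal than any of the 10 genes. DSE1 stood at 5.43 ± 1.59 times local background in rpd3Δ and 5.996 ± 1.56 in WT, and AMN1 at 4.24 ± 0.298 in rpd3Δ and 4.65 ± 0.939 in WT. The 8 regulators had a median of -0.0054, with FKH2 at 2.01 ± 0.183 times local background in rpd3Δ and 1.97 ± 0.353 in WT and SWI5 at 1.83 ± 0.506 in rpd3Δ and 1.98 ± 0.437 in WT. In gene bodies 3 of the 43 were called by edgeR, close to the 7.24% called over all bodies. CTS1, the chitinase gene, was higher in rpd3Δ (log2 fold change 0.68, adjusted p = 1.56e-05), as was SWI6 (0.44, adjusted p = 0.00276), and both lie on chromosome XII. TEC1 on chromosome II was lower (-0.35, adjusted p = 0.0378), a call lost when rpd3Δ sample 2 or 3 or any 1 WT sample was left out (edgeR adjusted p up to 0.149). With the local offset CTS1 and TEC1 passed (edgeR adjusted p = 0.0121 and 0.0352), while SWI6 had a log2 fold change of -0.019. With scaling on total counts CTS1 had 0.18 (edgeR adjusted p = 0.220), and SWI6 turned to -0.060.

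The promoters whose scaled counts followed those of MCM5 most closely over the 6 samples, among 680 promoters at 2 or more times local background, were those of HUR1 (Pearson r = 0.994), YLR112W (0.981) and AIM10 (0.977). These are descriptions over 6 libraries that share genotype and scaling, and 76 of the 680 had r over 0.8.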

How the data were processed

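Anti-FLAG ChIP-seq was analysed from 3 rpd3Δ and 3 WT samples. The authors deposited unnormalized counts for 241434 bins of 50 bp per sample. Per the submitters' processing notes, the tools were bedtools, SAMtools and Bowtie2 and the build R64; their versions, and how duplicates and multiply mapped reads were handled, are not given in the labels. A read crossing a bin border can be counted in each bin, so neighbouring bins are not independent.

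Gene positions came from the RefSeq table of the same build, with strand from locus tags. Bins were assigned to windows by their centres: promoters (500 bp before the start codon), 1000 bp upstream, 4 windows of 250 bp, and bodies. A mean of at least 10 counts was required; all windows of the 10 genes passed. Local background was the median bin of the surrounding 20 kb without rDNA, RPD3 and BAR1; these medians are 4 to 14 counts. Regions were called on the summed samples, smoothed over about 500 bp, at 2 or more times local background over at least 200 bp. Libraries were scaled by TMM over 1192 bins of 10 kb outside the rDNA.

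The test of rpd3Δ against WT was edgeR's quasi-likelihood test (edgeR 4.0.16, R 4.3.3, no covariate), with a threshold of 0.05 after Benjamini-Hochberg adjustment over all windows of a type; SE was taken from the log2 fold change and its F. Values over local background were compared by exact two-sided permutation tests over the 6 samples. Alternatives were DESeq2 1.42.0, other scalings, no filter, the local median as an offset, other window lengths, a replicate block, WT samples 1 and 2 summed, and each sample left out. The chi-square per degree of freedom between WT samples 1 and 2 over the 10 kb bins, 3.07, was the lowest of all pairs, and their rDNA shares of 43.3% and 37.1% differed, so they were counted as 2 samples. Tables and figures used scipy 1.17.1, pandas 2.3.3, numpy 2.4.6 and matplotlib 3.10.9 under Python 3.11.15. Of the edgeR fits, those of promoters, bodies, 250 bp windows and regions were checked on simulated counts, and that of the 1000 bp windows was not.

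Each of the 10 genes was named; of listed genes, those called or, with 0 called, the 2 with the highest promoter signal over local background; divergent neighbours; and the 3 promoters most like that of MCM5. The genes and lists were chosen with earlier results of these data known. Genes overlapped by the nearest regions were named after their values were seen. One gene planned for the regulator list is not reported here.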

Additional observations from a re-analysis of the deposited data

How the results depend on the processing

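The data limit what can be said of these promoters: 32 to 283 counts each, no input, and a scaling that decides direction, since the median log2 fold change of all promoters was -0.06 with the bins outside the rDNA and -0.57 with total counts. Without any 1 sample, calls ran from 12 to 176 in promoters, 196 to 484 in bodies, 11 to 212 in 250 bp windows and 8 to 188 in regions. Deviations of same-numbered samples had correlations of 0.080, -0.017 and 0.17, against -0.196 to 0.151 for the other pairs. With 3 samples a group these values cannot decide whether the replicate numbers pair the samples. With a replicate block edgeR made 187 promoter calls, 248 in 250 bp windows and 199 in regions, and the SIC1 promoter passed at 0.55 (adjusted p = 0.041), as did BUD4 at -0.53 (0.0462).

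Scaled on total counts, edgeR called 3085 promoters (1 higher, 3084 lower), 4309 bodies (2 higher, 4307 lower), 6749 windows and 337 regions. Promoter log2 fold changes were then -0.67 at MCM3, -0.072 at MCM4, -0.077 at MCM5, -0.68 at MCM7, -0.64 at CDC6, -0.86 at CLN3, -0.99 at EGT2, -0.48 at ORC6 and -0.48 at FKH2. Body values were -0.37 at MCM2, -0.72 at MCM3, -0.70 at MCM4, -0.32 at MCM5, -0.28 at MCM6, -0.35 at MCM7, -0.30 at CDC6, -0.10 at SIC1, -0.54 at EGT2 and -0.060 at SWI6, and MCM6 had -0.025 over 1000 bp. Scaled on the windows themselves, 251 regions were called, SIC1 passed at 0.61, and MCM2 had 0.046, YHP1 0.026, DSE1 0.044, SWI5 0.055 and AMN1 0.0051.

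With the local offset, 5 promoters, 101 bodies, 13 windows and 10 regions were called, CLN3's body had -0.30, MCM5's -0.085, EGT2's 0.079 and SWI6's -0.019. DESeq2 called 56 promoters and 92 regions. Over 1000 bp, 357 windows were called, with MCM6 at 0.48, CLN3 at -0.56, SIC1 at 0.54, ORC6 at -0.094, DSE1 at 0.035 and FKH2 at -0.074. With WT samples 1 and 2 summed, 24 promoters, 263 bodies, 24 windows and 8 regions were called, and YHP1 had 0.0045, DSE1 0.081, SWI5 0.060 and AMN1 0.0077.

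Log2 ratios of rpd3Δ to WT over local background moved beyond 1 SD at CLN3 (0.067 with a 10 kb surround, -0.34 over 1000 bp), EGT2 (-0.092 over 1000 bp) and MCM3 (0.16 with the local mean). Leaving out 1 sample, promoter log2 fold changes ran from -0.14 to 0.17 at MCM2, -0.27 to -0.043 at MCM3, 0.24 to 0.58 at MCM4 (lowest without WT sample 3), 0.27 to 0.58 at MCM5 (lowest without rpd3Δ sample 1), 0.34 to 0.68 at MCM6 (lowest without rpd3Δ sample 1), -0.30 to -0.094 at MCM7, -0.23 to -0.063 at CDC6, 0.45 to 0.66 at SIC1, -0.12 to 0.16 at ORC6, -0.21 to 0.098 at YHP1, -0.25 to 0.15 at DSE1, -0.21 to 0.066 at AMN1, -0.14 to 0.16 at SWI5 and -0.11 to 0.14 at FKH2. Body values ran from -0.55 to -0.39 at CLN3, 0.32 to 0.49 at SIC1 and -0.13 to 0.054 at EGT2. The causes were not tested.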

Other observations

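The binding region nearest to MCM4, XVI:588451-589000 over the non-coding transcript SUT418 and 7.75 kb upstream of the gene, was singled out after its values were seen. Its mean was 10.1, 7.54 and 9.11 scaled counts per 50 bp bin in rpd3Δ and 32.5, 28.7 and 22.1 in WT, so that every rpd3Δ sample was below every WT sample. Regions were called on the sum of the 6 samples, and the 20 kb around MCM4 averaged 5.89 in rpd3Δ and 7.10 in WT, so most of the signal that made this a region came from WT. The values are therefore given as a description, without a test.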
